A study of Mus musculus with 3 samples.

Results

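The genes described here drive and mark the cell cycle. They comprise cyclins, cyclin-dependent kinases (CDKs), CDK inhibitors, pocket proteins, E2F transcription factors, replication genes and mitotic genes, chosen by their known role, with earlier results of these arrays known. Of 59 genes listed, 57 had a row of their own on the arrays, among 22180 named genes in all. Ccne2 shares its row with another gene, and no row was matched to Ccnb1, so neither has a value. The arrays profiled STHdh cells, an immortalized striatal progenitor line made from each of 2 knock-in mouse genotypes (strain C57BL6/J) that carry a humanized Htt exon 1 with 7 (STHdhQ7/Q7) or 111 (STHdhQ111/Q111) polyQ repeats on both alleles. STHdhQ111/Q111 serves as a cell model of Huntington's disease (HD). Q7-Control is STHdhQ7/Q7 with a control morpholino oligo, Q111-Control is STHdhQ111/Q111 with the same oligo, and Q111-ASOs is STHdhQ111/Q111 with a pair of morpholino antisense oligos (ASOs) against the splice sites of exon 3 of Rest, the gene of a repressor of neuronal genes. Each of the ASOs was given at 3 μM, the delivery reagent Endo-Porter at 6 μM in every group, and cells were harvested after 48 h of treatment at 33 °C in medium with serum and G418. Each condition was read on 1 array. Values are log2 signals, so a difference of 1 is a 2-fold difference in signal. Where 3 values follow a gene, they run from Q7-Control through Q111-Control to Q111-ASOs.

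Cells pass from G1 through DNA replication to mitosis under the control of cyclins, which activate CDKs. In G1, D-type cyclins with Cdk4 and Cdk6 phosphorylate the pocket proteins, which releases E2F factors to switch on the genes of replication. Later, cyclin A and cyclin B with Cdk1 take the cell through G2 into mitosis. STHdh cells were immortalized with a temperature-sensitive SV40 large T antigen, a viral protein that binds pocket proteins and p53, and they divide at the lower temperature used here. Striatal neurons, in contrast, no longer divide.

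Rest itself, the target of the ASOs, was at 9.16 on both control arrays and at 9.33 with ASOs. The probes span the transcript, so these values do not report on the exon that the ASOs remove. Of 12 measured markers of striatal neurons, 9 had signals below the median of the array in Q7-Control and 8 in each of the Q111 arrays, the dopamine receptor genes Drd1 and Drd2 among them. Some genes of the list differed between the lines, in both directions. The opioid peptide precursor gene Penk (6.00, 7.96 and 8.22) and the transcription factor gene Ebf1 (9.06, 10.52 and 10.65) were 3.88-fold and 2.76-fold lower in Q7-Control relative to Q111-Control, while the transcription factor gene Meis2 (11.27, 10.58 and 10.54) was 1.62-fold higher. Penk is among the 9 markers below the median of the array in Q7-Control, so its fold rests on a dim value. Of 8 markers of postmitotic neurons, 1 differed over 2-fold, the neuronal tubulin gene Tubb3 (7.79, 5.95 and 6.89), whose signal exceeded that of Q111-Control 3.58-fold in Q7-Control and 1.92-fold in Q111-ASOs. Of these 8, 6 were below the median of the array in Q111-Control, Tubb3 among them, and 5 on each other array. The folds of Tubb3 thus rest on a dim value, and most of the other markers were dim. The progenitor markers Sox2 and Nes were at 11.34 and 10.21 in Q7-Control but at 6.96 and 6.08 in Q111-Control, where Nes was below the median of the array. Each line is 1 source of cells, so the length of the polyQ stretch and any other difference between the lines cannot be told apart. With 1 array per condition, no difference has a replicate behind it and none was tested, so precision is limited by the number of arrays.

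Promoter sequences are shown because the phase groups differ in the motifs they hold. E2F factors bind motifs in the promoters of replication genes, while a short element called CHR, often accompanied by CCAAT boxes that bind the factor NF-Y, is known from promoters of genes used in G2 and mitosis. The RefSeq promoter table (mouse build GRCm38.p6), with windows of 250 bases before to 50 bases after a transcription start, lists 45 of the 57 measured members. Both strands were searched for an E2F motif (TTTGGCGC, TTTCCCGC, TTTGCCGC or TTTCGCGC), for CHR (TTTGAA or TTCGAA) and for CCAAT. The promoters below were chosen to show a gene of the licensing group (Mcm5), a gene of G2/M control that had the same value on all arrays (Cdk1) and the gene of G2/M control that differed most (Ccnb2). Capitals mark matches to any of the 3 motifs on either strand, so that CCAAT on the opposite strand reads ATTGG.
Mcm5 (chr8:75109259-75109558, plus strand): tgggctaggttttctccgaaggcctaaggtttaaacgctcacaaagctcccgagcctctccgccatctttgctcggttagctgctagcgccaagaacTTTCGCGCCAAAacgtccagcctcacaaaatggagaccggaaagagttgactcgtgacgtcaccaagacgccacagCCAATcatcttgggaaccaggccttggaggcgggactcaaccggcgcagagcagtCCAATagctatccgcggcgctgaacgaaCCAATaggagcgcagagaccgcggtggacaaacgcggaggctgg
Cdk1 (chr10:69352863-69353162, minus strand): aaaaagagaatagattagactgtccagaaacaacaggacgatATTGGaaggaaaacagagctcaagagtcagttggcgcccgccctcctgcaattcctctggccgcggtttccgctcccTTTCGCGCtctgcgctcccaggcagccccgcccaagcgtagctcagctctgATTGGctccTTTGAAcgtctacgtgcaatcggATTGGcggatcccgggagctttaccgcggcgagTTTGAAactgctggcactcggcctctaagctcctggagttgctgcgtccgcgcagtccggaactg
Ccnb2 (chr9:70421505-70421804, minus strand): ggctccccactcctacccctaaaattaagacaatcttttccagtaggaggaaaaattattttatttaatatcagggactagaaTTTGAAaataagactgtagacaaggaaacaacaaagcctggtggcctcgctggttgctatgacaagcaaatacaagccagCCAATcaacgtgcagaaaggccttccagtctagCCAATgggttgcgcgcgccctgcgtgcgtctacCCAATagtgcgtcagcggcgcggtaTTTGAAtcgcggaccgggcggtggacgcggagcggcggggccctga
In Mcm5 the block TTTCGCGCCAAA holds an E2F match on each strand, and these overlap. Ccnb2 carries 3 CCAAT boxes and 2 CHR matches but no E2F match, whereas Cdk1 holds all of the motifs.

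Among the 45 members with a promoter, 14 (31.1%) held an E2F match, against 2.26% of all 32851 promoters and 2.60% of the 27025 genes in the table. Matches lay in 6 of 7 licensing genes (Mcm3, Mcm5, Mcm6, Mcm7, Cdc6 and Cdt1), in 3 of 5 E2F genes (E2f2, E2f3 and E2f7), and in Cdk2, Cdc25a, Rbl1, Cdkn2a and Cdk1. None of the 13 mitosis genes with a promoter held one, but neither did any of the 4 DNA synthesis genes or of the 3 G1 entry genes with a promoter. The CHR element was found in 10 of those 13 mitosis genes and in 19 of 45 members (42.2%), against 19.2% of all promoters and 21.7% of genes. It was not confined to genes of G2 and mitosis, as 3 of 5 E2F genes (E2f2, E2f3 and E2f8) and 2 of 7 licensing genes (Mcm2 and Mcm7) also held it. CCAAT was found in 32 of 45 members (71.1%), against 37.4% of promoters and 41.1% of genes, and in 11 of the 13 mitosis genes. A match describes the letters of the window and does not show that a factor binds there.

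Members were grouped by the phase in which they act, and each group was compared on all 3 arrays. The largest differences lay in G1 entry. Ccnd1, the gene of cyclin D1, gave a log2 signal of 11.88 in Q7-Control against 9.15 in Q111-Control and 9.27 with ASOs. Q7-Control was thus 6.62-fold above Q111-Control and 6.09-fold above Q111-ASOs, while the Q111 arrays lay within 1.09-fold of each other. Ccnd2, which encodes cyclin D2, had 10.84, 8.20 and 8.55 on the same arrays, or 6.21-fold for Q7-Control over Q111-Control. For Ccnd2 the value in Q111-ASOs was 1.27-fold above Q111-Control and still 4.88-fold below Q7-Control.
Ccnd3, the third D-type cyclin gene, had 10.10, 10.01 and 9.96, a spread of 1.11-fold over all arrays. The high Q7-Control signal was therefore a feature of Ccnd1 and Ccnd2 and was not seen for Ccnd3. Their kinase partners followed this only in part. Cdk6 had 10.71, 9.88 and 10.15, so that Q7-Control was 1.78-fold above Q111-Control and 1.47-fold above Q111-ASOs. Cdk4 had exactly the same signal, 12.76, on each array. Such exact ties, here and in the groups below, occurred for 35.5% of all named genes. Whether a tie reflects equal expression was not tested.

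**Figure D1:**
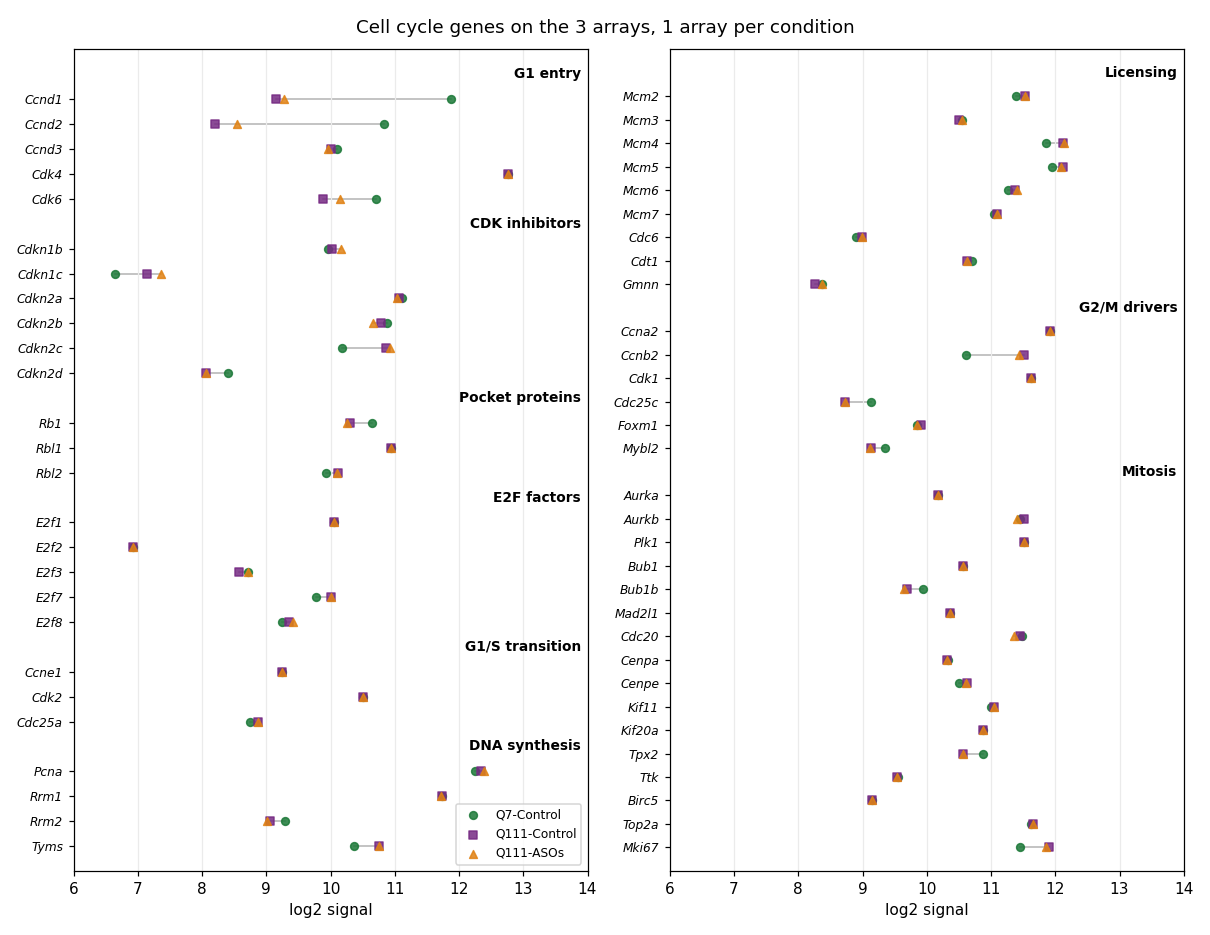
Log2 signal (x axis) of the 57 measured genes on the Q7-Control (circle), Q111-Control (square) and Q111-ASOs (triangle) arrays, 1 array each, grouped by phase. A grey line joins the lowest and highest of the 3 values of a gene. Ccnd1 and Ccnd2 have wide gaps between Q7-Control and both Q111 arrays (log2 differences from Q111-Control of 2.73 and 2.63), and for most genes the symbols overlie one another.

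Over all members, Q7-Control exceeded Q111-Control by more than 2-fold for 2 of 57 (3.51%), namely Ccnd1 and Ccnd2, and none was more than 2-fold lower. Of all named genes, 2.53% were higher and 2.03% lower by this criterion. Of the brighter 11090 genes, whose mean signal reached the gene median of 6.55 as that of every measured member did, 3.98% were higher and 3.61% lower. The count of members is thus close to the background. By a 1.5-fold criterion, 3 members (5.26%) were higher (Ccnd1, Ccnd2 and Cdk6), where the background was 5.2%, and 2 (3.51%) lower (Ccnb2 and Cdkn2c), where it was 3.88%. Of the brighter genes, 8.1% were higher and 6.73% lower by this criterion. Set against Q111-ASOs, Ccnd1 and Ccnd2 again exceeded 2-fold in Q7-Control and no member was lower, with a background of 2.25% higher and 2.27% lower. The 1.5-fold criterion gave 2 members higher there (background 4.68%) and 3 lower (Ccnb2, Cdkn2c and Cdkn1c, background 4.4%). Relative to Q111-ASOs, the brighter genes gave 3.43% higher and 3.97% lower over 2-fold, and 7.04% and 7.51% over 1.5-fold. The comparisons with Q111-Control and with Q111-ASOs share the Q7-Control array. The median log2 difference of the members was 0.00 in each comparison, as it was for all genes. Exactly equal values weigh on these medians. Between Q7-Control and Q111-Control, 22.8% of members and 43.4% of all genes were equal, and between Q111-ASOs and Q111-Control 43.9% and 49.4%. Without regard to sign, the median difference between Q7-Control and Q111-Control was 0.09 on the log2 scale, against 0.13 for the brighter genes and 0.03 for all genes.

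The lines differed in more than the D-type cyclins, and markers of cell type differed between them as well. Of 9 progenitor markers, 7 differed over 2-fold toward Q7-Control in the comparison of the lines (Sox2, Nes, Id4, Pax6, Hes1, Fabp7 and Msi1). Sox9 was over 2-fold lower and Vim was equal. Of all named genes, 2.53% were higher and 2.03% lower by this criterion, and of the brighter genes 3.98% and 3.61%. Nes and Pax6 were below the median of the array in Q111-Control, so their folds rest on dim values. The summed signal of the 9 progenitor markers was 14.31 on the log2 scale in Q7-Control and 14.02 on each of the Q111 arrays, a sum carried by Vim (13.78 on every array). The striatal neuron list, with Penk and Ebf1 lower in Q7-Control, had summed signals of 12.29, 12.48 and 12.54, and the postmitotic neuron list, with Tubb3 higher, 10.86, 10.89 and 10.88. The postmitotic sum is carried mostly by Map2 (10.35, 10.57 and 10.51). Of 9 markers of fibroblasts and mesenchymal cells, 3 were over 2-fold lower in Q7-Control (Col1a2, Pdgfra and Col3a1) and none was higher, with summed signals of 13.24, 14.08 and 14.25. None of 9 macrophage markers and none of 5 endothelial markers differed over 2-fold between any of the arrays, and signals of 8 of the 9 and all 5 were below the median of each array. No array value is a true zero, so no marker can be called absent. The part of these cell type differences in the D-type cyclin result was not tested. In bulk RNA, fewer cells that express a gene and less RNA per cell cannot be told apart.

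Genes beside Ccnd1 and Ccnd2 on the chromosome were examined next, in the gene order of the RefSeq table of GRCm38.p6, a choice made after the values of these genes were seen. Of the 4 nearest measured genes on each side of Ccnd1 (Fgf3, Fgf4, Fgf15 and LTO1, then Tpcn2, Smim38, Mrgprf and Mrgprd), none differed over 2-fold between Q7-Control and Q111-Control, with log2 differences from -0.76 for Mrgprf to 0.47 for Fgf15. Around Ccnd2 (D6Wsu163e, Fgf6, Fgf23 and Tigar, then 9330179D12Rik, Parp11, Cracr2a and Prmt8), none differed over 2-fold either, with values from -0.57 for Parp11 to 0.06 for Tigar. The nearest gene on each side of Ccnd1, LTO1 and Tpcn2, was lower in Q7-Control, by log2 differences of -0.18 and -0.68. Among these genes, a difference over 2-fold was seen for Ccnd1 and Ccnd2 only, which were chosen for that difference. Of all named genes, 2.53% were over 2-fold higher and 2.03% lower. A count of 0 among 8 neighbours of each gene is thus close to the background. Many of the neighbours were dim, however. Fgf3, Fgf4, Smim38 and Mrgprd near Ccnd1 lay at or below the gene median of 6.55 on every array. So did Fgf6, Fgf23, 9330179D12Rik, Cracr2a and Prmt8 near Ccnd2. The lack of a difference in such dim genes says little.

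**Figure D2:**
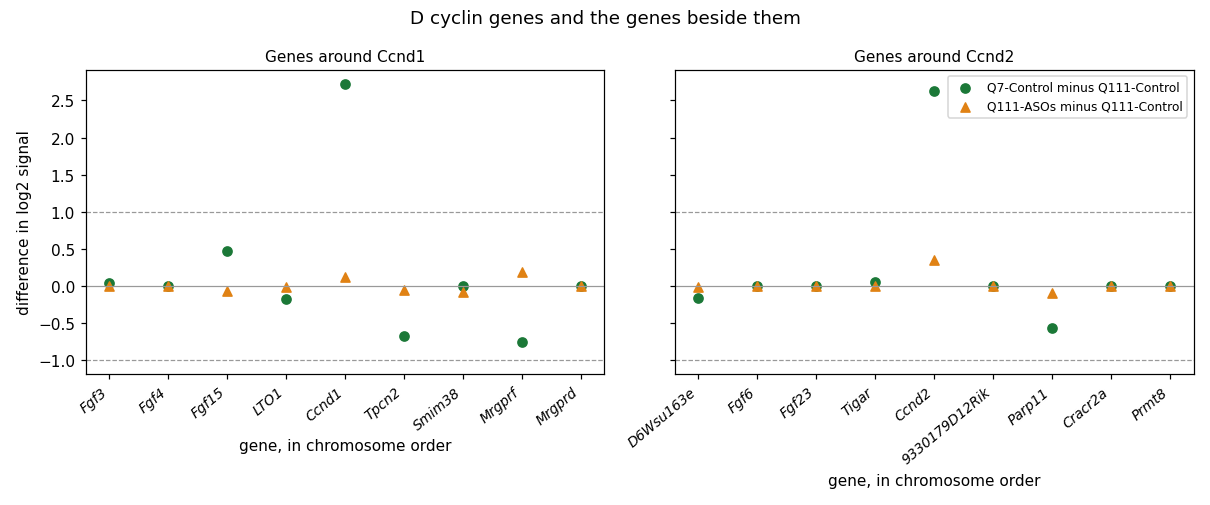
Difference in log2 signal (y axis) for Ccnd1, Ccnd2 and the 4 nearest measured genes on each side (x axis, chromosome order), for Q7-Control minus Q111-Control (circle) and Q111-ASOs minus Q111-Control (triangle), with 1 array per condition. Dashed lines mark 2-fold. Only the D-type cyclin gene in the middle of each panel lies above the upper dashed line, at 2.73 for Ccnd1 and 2.63 for Ccnd2.

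CDK inhibitors, which hold cells in G1, showed smaller differences. Cdkn2c, whose product inhibits Cdk4 and Cdk6, had 10.18 in Q7-Control, but 10.86 in Q111-Control and 10.92 with ASOs. Its Q7-Control value was 1.60-fold below Q111-Control and 1.67-fold below Q111-ASOs. Cdkn1c, an imprinted inhibitor gene of the Cip/Kip family, had 6.64, 7.14 and 7.36, so that Q7-Control was lowest and Q111-ASOs highest, 1.65-fold apart. The Q7-Control signal of Cdkn1c was close to the gene median, so this is a dim value. Cdkn2d had 8.41 in Q7-Control and 8.05 on both Q111 arrays, which is 1.28-fold higher in Q7-Control. Cdkn1b (9.96, 10.02 and 10.17), Cdkn2b (10.88, 10.79 and 10.66) and Cdkn2a (11.11, 11.06 and 11.03) lay within 1.16-fold, 1.16-fold and 1.06-fold across the arrays. The inhibitors of the Cdkn2 family therefore differed among themselves, Cdkn2c being lower and Cdkn2d higher in Q7-Control while Cdkn2a and Cdkn2b were nearly level.

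Pocket proteins and E2F factors, the switch that D-type cyclins act upon, had close signals in both lines. Rb1, the retinoblastoma gene, had 10.65, 10.30 and 10.26, with Q7-Control 1.27-fold above Q111-Control. Its relative Rbl2 had 9.93, 10.12 and 10.10, a difference in the other direction of 1.14-fold, and Rbl1 had 10.94 on every array. A second, dim row of Rb1 had 4.50, 4.55 and 4.55. E2f1 and E2f2, transcription activators, had equal values on all arrays, 10.05 and 6.93. The activator gene E2f3 had 8.57 in Q111-Control and 8.71 on both other arrays. The repressor genes E2f7 (9.78, 10.01 and 10.01) and E2f8 (9.24, 9.36 and 9.41) were both lower in Q7-Control, E2f7 by 1.18-fold and E2f8 by 1.08-fold. The largest Q7-Control to Q111-Control difference in the E2F group was thus 1.18-fold.

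Genes of the G1/S transition, where cyclin E with Cdk2 starts replication, were nearly the same on the arrays. Cdk2 had 10.50 throughout and Ccne1, the gene of cyclin E1, 9.24 throughout at this rounding. Cdc25a, a phosphatase that activates CDKs, had 8.74 in Q7-Control and 8.87 on both Q111 arrays. Licensing, by which the Mcm helicase is loaded onto replication origins, was represented by 9 genes. The median difference of these 9 genes between Q7-Control and Q111-Control was -0.09 on the log2 scale, against 0.00 for all genes. Of the 6 Mcm genes, 5 were slightly lower in Q7-Control, from 1.04-fold for Mcm7 to 1.20-fold for Mcm4 (11.86, 12.12 and 12.14), and Mcm3 was 1.03-fold higher. Cdc6 and Cdt1, which load the helicase, had 8.90 against 8.99 and 10.71 against 10.62 in Q7-Control and Q111-Control. Gmnn, the gene of the Cdt1 inhibitor geminin, had 8.37, 8.26 and 8.37. All 9 licensing genes, including the 6 with an E2F match, lay within 1.22-fold over the arrays.

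In DNA synthesis, Pcna, the sliding clamp of the polymerases, had 12.25, 12.34 and 12.38. Rrm1, the large subunit of ribonucleotide reductase, had 11.73 on every array. Its partner Rrm2, which sets the activity of the enzyme in S phase, had 9.29, 9.06 and 9.01, a Q7-Control value 1.17-fold above Q111-Control. Tyms, which makes thymidylate, went the other way, with 10.37 in Q7-Control and 10.75 on both Q111 arrays, 1.30-fold lower in Q7-Control. The genes of this phase did not share a direction between the lines.

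Among the drivers of G2 and mitosis, Ccnb2 stood apart. The cyclin B2 gene had 10.61 in Q7-Control, but 11.51 in Q111-Control and 11.43 with ASOs, so that Q7-Control was 1.87-fold below Q111-Control and 1.77-fold below Q111-ASOs. It was the member with the lowest Q7-Control value relative to Q111-Control. Its kinase partner Cdk1 (11.63) and the cyclin A2 gene Ccna2 (11.92) had the same value on every array. The promoters of Ccnb2 and Cdk1, printed above, both hold CHR and CCAAT. Cdc25c, the phosphatase that activates Cdk1, had 9.12 in Q7-Control and 8.73 on both Q111 arrays, 1.31-fold higher in Q7-Control. The transcription factor genes Foxm1 (9.85, 9.91 and 9.85) and Mybl2 (9.35, 9.13 and 9.12), which switch on genes of G2 and mitosis, differed by 1.04-fold and 1.16-fold between Q7-Control and Q111-Control.

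The 16 genes of mitosis all lay within 1.36-fold over the arrays. In that group, 6 genes had identical values on all arrays, namely the kinase genes Aurka (10.18), Plk1 (11.51) and Bub1 (10.56), the checkpoint gene Mad2l1 (10.37), the kinesin gene Kif20a (10.88) and Birc5 (9.15), which encodes survivin. Mki67, the gene of the proliferation marker Ki-67, had 11.46, 11.90 and 11.85, with Q7-Control 1.36-fold below Q111-Control. Tpx2, a spindle assembly gene, had 10.87 in Q7-Control and 10.56 on both Q111 arrays, 1.24-fold higher in Q7-Control. The checkpoint kinase gene Bub1b had 9.94, 9.69 and 9.65, or 1.19-fold higher in Q7-Control. Cenpe, a kinesin of the kinetochore, was at 10.49 against 10.62 on both Q111 arrays.
The remaining mitosis genes Aurkb, Cdc20, Cenpa, Kif11, Ttk and Top2a had differences between Q7-Control and Q111-Control from -0.06 to 0.05 on the log2 scale. For the group, 5 genes were higher, 5 lower and 6 equal in Q7-Control, with a median of 0.00.

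**Figure D3:**
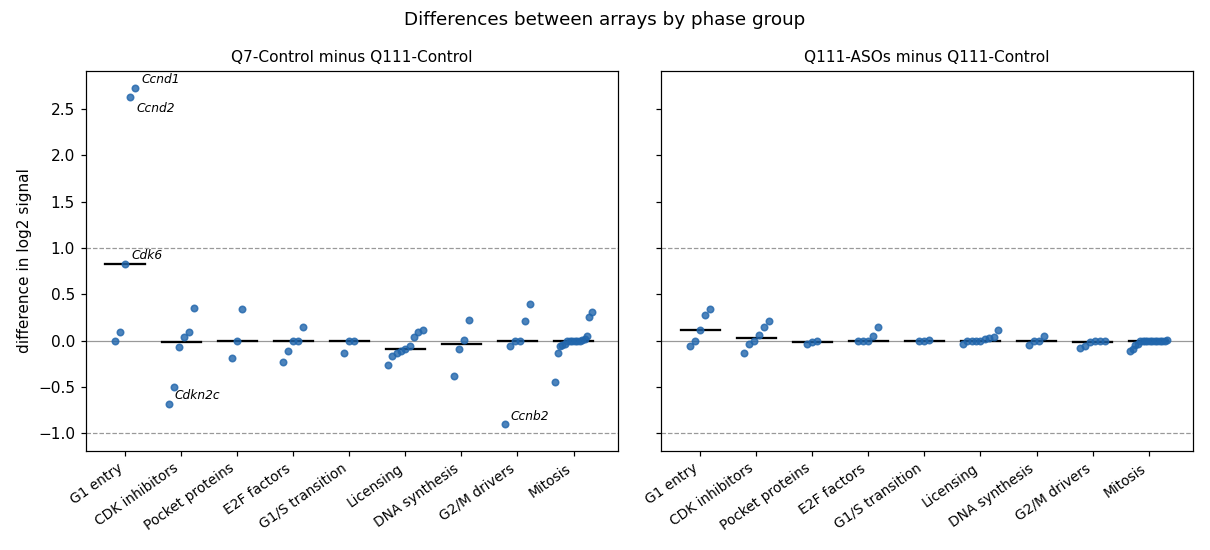
Difference in log2 signal (y axis) of each measured gene (point) by phase group (x axis), for Q7-Control minus Q111-Control (left) and Q111-ASOs minus Q111-Control (right), with 1 array per condition. The black bar is the median of a group, dashed lines mark 2-fold, and genes over 1.5-fold are named. Ccnd1 and Ccnd2 exceed 2-fold on the left, and on the right every point lies between -0.13 and 0.35.

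With the ASOs, none of the 57 members differed over 2-fold from Q111-Control, and none over 1.5-fold. Of all named genes, 0.104% were over 2-fold higher and 0.0271% lower, and 0.455% and 0.153% by the 1.5-fold criterion, so a count of 0 among 57 is close to the background. Log2 differences ran from -0.13 for Cdkn2b to 0.35 for Ccnd2. Signals were higher with ASOs for 15 members, lower for 17 and equal for 25, where all named genes gave 6154 higher, 5061 lower and 10965 equal, and the brighter genes 4548, 2618 and 3924. Ccnd2 (1.27-fold), Cdk6 (1.21-fold), Cdkn1c (1.16-fold), Cdkn1b (1.11-fold) and E2f3 (1.11-fold) were the highest relative to Q111-Control. The list thus holds both a D-type cyclin and its kinase partner, which promote passage through G1, and inhibitors of CDKs. Of the 6 G2/M drivers, none was higher with ASOs, 4 were lower and 2 equal, by 1.05-fold at most (Ccnb2), and of the mitosis genes 1 was higher, 5 were lower and 10 were equal, Aurkb being lower by 1.08-fold. Both this comparison and that between the lines use the Q111-Control array.

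Between any of the 3 arrays, 6 members differed over 1.5-fold (Ccnd1, Ccnd2, Cdk6, Ccnb2, Cdkn2c and Cdkn1c), which is 10.5% of the 57 members against 10.3% of all named genes and 16.4% of the brighter genes. The other 51 lay within 1.36-fold. For 13 members (22.8%) the 3 values were identical, against 35.5% of all genes and 19.0% of the brighter genes. Identical values were in the table as deposited, and the steps of its processing were not given in the sources used here. An identical value is therefore not read as a measure of equal expression.

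Other genes of the same pathways, chosen by role, were read in the same way. Of 50 further genes of DNA replication and S phase, none differed over 1.5-fold on either comparison with Q111-Control, and the largest differences between the lines were those of Dscc1 and Clspn, 1.40-fold and 1.36-fold lower in Q7-Control. Rfc2, a clamp loader subunit, had 9.14 in Q111-Control and 8.75 on both other arrays. Of these S phase genes, 12 were higher in Q7-Control relative to Q111-Control, 20 lower and 18 equal. Of 61 further G2 and mitosis genes, none was over 2-fold apart and 1, Pimreg, was 1.74-fold higher in Q7-Control (9.57, 8.77 and 8.76). In this list 33 genes were higher in Q7-Control relative to Q111-Control, 13 lower and 15 equal. All named genes gave 6585 higher, 5965 lower and 9630 equal, and the brighter genes 4198, 4180 and 2712. Relative to Q111-ASOs, 35 genes of the list were higher in Q7-Control, 12 lower and 14 equal. All named genes gave 6922, 5785 and 9473 there, and the brighter genes 4023, 4392 and 2675. The median of the list relative to Q111-Control was 0.02 on the log2 scale, and -0.01 with each array centred on its median. Centring shifts every difference by -0.03, equal genes included, so the sign of this median depends on it. Whether the list has a direction was not tested.
Of 25 further genes of G1 control, Cables1, whose product is an adaptor of CDKs and the kinase Abl, was 3.01-fold lower in Q7-Control, with 6.47, 8.06 and 8.47 on the arrays. Its Q7-Control signal was below the gene median of 6.55, so this fold rests on a dim value. None was over 2-fold higher. Mnat1, a subunit of the CDK-activating kinase, was 1.67-fold higher in Q7-Control (9.56 against 8.82 on both Q111 arrays), and Myc, which drives growth and G1 entry, was 1.58-fold higher (10.11, 9.45 and 9.48). Of 18 genes linked to growth arrest, Klf4, a transcription factor gene, was 3.16-fold higher in Q7-Control (9.85, 8.19 and 8.27) and Gas1, a growth-arrest gene of the cell surface, was 2.65-fold lower (11.03, 12.44 and 12.59). Mxd4, an antagonist of Myc, was 1.79-fold lower in Q7-Control, and Gas6 1.64-fold higher. Across the 4 lists, Q7-Control exceeded Q111-Control over 2-fold for 1 of 154 genes and lay over 2-fold below it for 2, against a background of 2.53% and 2.03%. Of the brighter genes, 3.98% were higher and 3.61% lower. With ASOs none of the 154 was over 1.5-fold apart from Q111-Control, Gas6 (1.34-fold) and Cables1 (1.33-fold) being highest.

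**Figure D4:**
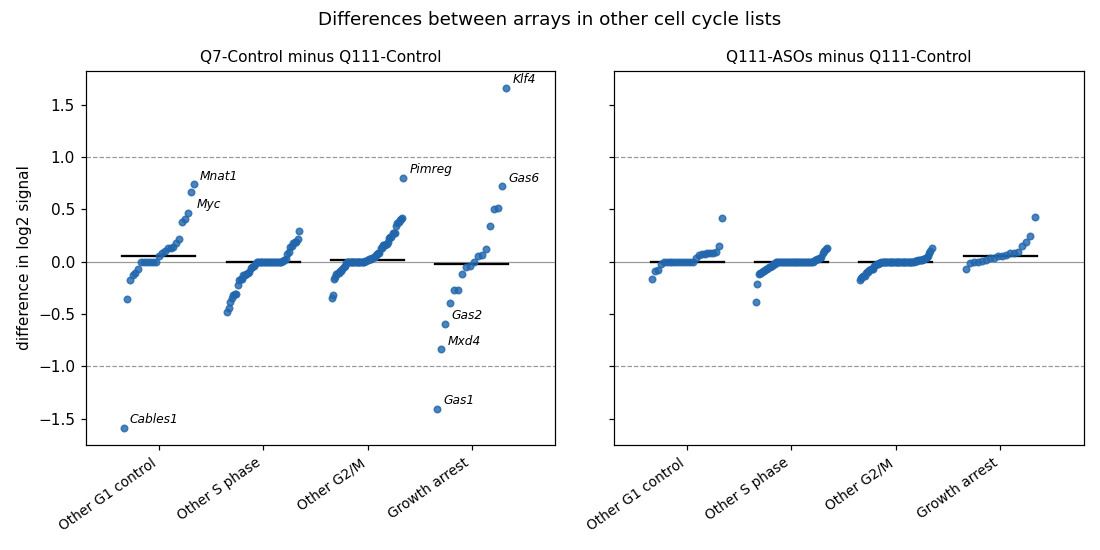
Difference in log2 signal (y axis) of further cell cycle genes (points) in 4 lists (x axis), for Q7-Control minus Q111-Control (left) and Q111-ASOs minus Q111-Control (right), with 1 array per condition. The black bar is the median of a list, dashed lines mark 2-fold, and genes over 1.5-fold are named. Klf4 lies above and Gas1 and Cables1 below 2-fold on the left, and no gene passes 1.5-fold on the right.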

How the data were processed

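Total RNA from 3 cultures was hybridized to Affymetrix Mouse Gene 2.0 ST arrays, 1 per condition. The values deposited for each transcript cluster are log2 signals, which the authors obtained with Partek. Neither its version nor the background correction, normalization or summarization was given in the sources used here, and the log2 scale was taken from the values (2.12 to 14.10). Rows with 1 gene symbol (23521 of 41345) were used as deposited and named through the platform annotation, updated by gene ID through the RefSeq table of GRCm38.p6 (23328 matched). Another 1820 rows list several symbols and 16004 list none, and these stayed unnamed. For genes with several rows, as Rb1, Rrm2 and Mybl2 among the members, the row with the highest mean was kept.

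Log2 differences were counted past 2-fold, without tests. The calculation was checked on simulated data. Members and lists were chosen with earlier results of these data known. Named are members over 1.5-fold between any 2 arrays or described for their role, and up to 4 genes of each other list with the largest differences. Alternatives were centring, quantile normalization, a filter on signal, the mean of rows, values relative to Gapdh, leaving out genes with equal values, criteria of 1.5-fold and 3-fold, all rows and a shorter set of motifs. Promoters came from RefSeq. Calculations used pandas 2.3.3 and numpy 2.4.6 under Python 3.11.15, and matplotlib 3.10.9 drew the plots.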

Additional observations from a re-analysis of the deposited data

How the results depend on the processing

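No paired analysis was possible because there is a single array per condition, and no replicate could be left out. A log2 value was taken as moved when it shifted by 0.13 or more, the SD of the differences between Q111-ASOs and Q111-Control over genes, and a count when it left a range of 1.5 times. Centring, quantile normalization, the filter on signal, the mean of rows and values relative to Gapdh moved none of the counts, medians or gene values by these limits, and no value changed sign among the members over 2-fold. The medians of 2 groups did change sign close to 0, that of the further G2 and mitosis genes with centring (0.02 to -0.01) and that of the DNA synthesis genes with quantile normalization (-0.04 to 0.0018), both for Q7-Control minus Q111-Control. Gapdh was equal on all arrays and the filter removed no member, so these alternatives could not move member values. Centring shifted Q7-Control minus Q111-Control by -0.03 and Q111-ASOs minus Q111-Control by -0.01. Both shifts are below the limit of 0.13, so centring could move counts but not these values or their medians. Among the members, the mean of rows could change only Rb1, Rrm2 and Mybl2. Without genes equal on all arrays, the median of the G1 entry genes was 1.73 for Q7-Control minus Q111-Control (0.83 with them) and 1.42 for Q7-Control minus Q111-ASOs (0.56), and that of the E2F genes was -0.17 for the latter (0.00), since fewer genes enter each median. With the 1.5-fold criterion, 2 members were lower in Q7-Control relative to Q111-Control and 3 relative to Q111-ASOs. By that criterion, relative to Q111-Control, the further lists gave 2 higher and 1 lower in G1 control and 1 higher in G2 and mitosis. Growth arrest gave 2 higher and 3 lower. Relative to Q111-ASOs, G1 control gave 2 higher and 1 lower, G2 and mitosis 1 higher, and growth arrest 1 higher and 3 lower. With the 3-fold criterion, growth arrest had 1 higher and 0 lower relative to Q111-Control, and 0 higher and 0 lower relative to Q111-ASOs. Where these counts differ from those at 2-fold, they move because the criterion itself does. In the table of all rows, unnamed ones included, 1170 rows were over 2-fold lower in Q7-Control relative to Q111-Control and 1141 relative to Q111-ASOs, while 182 were higher and 160 lower with ASOs, and the cause was not tested. With the shorter motif set (TTTGGCGC or TTTCCCGC, and TTTGAA alone), 12 members held an E2F match and 17 a CHR match.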
